A study of Mus musculus with 6 samples.

Results

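Complex I (NADH:ubiquinone oxidoreductase) is followed here through the messenger RNA of its nuclear genes in mouse hearts. The members were the genes whose symbol is Ndufa, Ndufb, Ndufc, Ndufs, Ndufv, Ndufab or Ndufaf followed by a number and whose mean level over 6 libraries was at least 1 FPKM (fragments scaled for gene length and library depth). The rule gave 45 of the 26835 genes in the table; no gene with such a symbol lay below the limit, and the lowest member, Ndufaf4, stood at 3.22 FPKM. By role they comprised 8 subunits of the N module, 8 of the Q module, 9 of the proximal membrane arm, 11 of the distal membrane arm, 8 assembly factors and Ndufa4, which is now counted with complex IV. The hearts came from C57BL/6 mice of 7 to 8 weeks and 20 g ± 2 g, whose genotype the labels give as "wide type". Control mice were injected intraperitoneally with 10% DMSO, CFZ mice with the proteasome inhibitor carfilzomib at 8 mg/kg, and CFZ_EA mice with the same dose of carfilzomib together with electroacupuncture at the acupoint PC6, each group being represented by 2 libraries. Days 0, 2, 4 and 6 are listed for every library, and the labels say neither which of these is the day of sampling nor whether the libraries of a group came from separate mice. The p-values therefore reflect no more than how far these libraries spread, and part of that spread may be technical.

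Complex I is the entry point of electrons from NADH into the respiratory chain and the largest enzyme of that chain. Its N module oxidizes NADH, its Q module passes the electrons through iron-sulfur clusters to ubiquinone, and its membrane arm pumps protons. The membrane arm is built around subunits encoded in mitochondrial DNA, whereas the N and Q modules and all accessory subunits are encoded in the nucleus, and assembly factors join the modules without staying in the finished enzyme. Heart muscle is rich in mitochondria and depends on this chain for contraction.

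Promoters of the members, most of which varied together from library to library, were searched for motifs of factors known to act on respiratory genes. Whether these motifs bear on that shared variation was not tested. RefSeq windows of 300 bases (GRCm38.p6, 250 bases before to 50 after the gene's start) matched 40 of the 45 members by symbol. On either strand, the letters GCGCA and GCGC with any 1 base between them (NRF1) were found in 9 of the 40 windows (22.5%, against 12.1% of the 7486 tested genes with a window). The letters AANATGGC (YY1) were found in 14 (35% against 10.4%), AAGGTCA (estrogen-related receptors) in 3 (7.5% against 3.94%) and CCGGAAG (ETS factors) in 6 (15% against 20.7%). None of these motifs contains another. The YY1 matches of Ndufa3, Ndufa9, Ndufaf8, Ndufb8, Ndufc1, Ndufs4, Ndufs6 and Ndufs7 began 10 to 38 bases after the start, each as AAGATGGC. Those stretches overlap annotated exons. In Ndufa7, Ndufaf3, Ndufb5, Ndufb10, Ndufb11 and Ndufs8 the YY1 matches began before the start, at positions from -225 to -18. Ndufs8 was at -165 and Ndufb10 at -198. Stretches outside annotated exons are shown for 3 members named below, Ndufs8 (Q module), Ndufb10 (distal arm) and Ndufaf4 (assembly), and for Ndufs5 and Ndufb4, which were chosen for holding a match, to show how one motif recurs in genes of different modules. Capitals mark the match, and each sequence reads 5′ to 3′ on the gene's strand.
Ndufaf4, chr4:24897945-24898004, plus strand, NRF1 letters: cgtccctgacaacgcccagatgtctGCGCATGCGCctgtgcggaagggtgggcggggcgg
Ndufs5, chr4:123718250-123718309, minus strand, NRF1 letters: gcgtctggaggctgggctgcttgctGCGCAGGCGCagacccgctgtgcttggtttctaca
Ndufb4, chr16:37654525-37654584, minus strand, NRF1 letters: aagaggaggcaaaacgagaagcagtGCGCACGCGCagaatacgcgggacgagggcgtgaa
Ndufs8, chr19:3912907-3912964, minus strand, YY1 letters: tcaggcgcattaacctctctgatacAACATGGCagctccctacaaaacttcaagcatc
Ndufb10, chr17:24724589-24724646, minus strand, YY1 letters in reverse: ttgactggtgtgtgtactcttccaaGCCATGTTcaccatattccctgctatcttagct
The first 3 sequences hold the NRF1 letters with a different base at the free position. A match is a description of letters and not a bound site, and no protein binding was measured here.

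Estimated counts totalled 50013990 to 75742448 per library. Control replicate 2 stood apart from the other 5 libraries, at 48.0 on a first principal component that held 37.2% of the variance, against -22.1 to 0.373 for the others. Its 8 fibroblast markers summed to 7555 CPM (counts scaled by library total and TMM factor) against 703 to 1163 CPM elsewhere, its 6 macrophage markers to 1012 against 277 to 397 CPM, and its 8 cardiomyocyte markers to 61945 against 71494 to 81456 CPM. The 7 atrial markers, which differed between groups as well as within them, summed to 3228 and 1636 CPM in controls, 369 and 227 in CFZ and 1082 and 6473 in CFZ_EA. The labelled tissue was borne out by the summed level of those cardiomyocyte markers, at 61945 CPM or more in every library. None of the 8 was at 0 in any library, but neither were 10308 of the 10329 tested genes. In whole tissue, fewer cells of a type and less RNA per cell cannot be told apart.

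The subunits were abundant and the assembly factors scarce. Mean levels over the 6 libraries were highest for Ndufb9 (664 FPKM), Ndufb10 (597 FPKM) and Ndufb11 (547 FPKM), which are accessory subunits of the distal arm, and lowest for Ndufaf4 (3.22 FPKM), Ndufaf2 (3.58 FPKM) and Ndufaf7 (6.12 FPKM). The 8 assembly factors ran up to 37.3 FPKM for Ndufaf8, and the 36 subunits of complex I from 21.3 FPKM for Ndufb2 upwards. Levels of a few subunits are low for their counts, because the deposited FPKM correspond to 1.09 to 1.10 times the length of all annotated exons together. Ndufs1, which carries iron-sulfur clusters and is the largest subunit, stood at 41.9 FPKM over a summed exon length of 8.09 kb, while its longest annotated transcript is 2.66 kb. Similar copies of Ndufab1, Ndufb4 and Ndufs6 (Ndufab1-ps, Ndufb4c and Ndufs6b) are listed in the table, and Ndufa13 overlaps Yjefn3 (6.79 FPKM) on the same strand, so the values of these 4 members are uncertain.

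Most members were low and high in the same libraries. Each gene's log2 CPM was set against its own mean over the 6 libraries. The median of these deviations was 0.02 in control replicate 1, -0.22 in control replicate 2, 0.01 in CFZ replicate 1, 0.21 in CFZ replicate 2, and -0.02 in both CFZ_EA libraries. Thus 45 of 45 members were below their own mean in control replicate 2 and 42 were above it in CFZ replicate 2. Control replicate 2 was the lowest library for 40 members (25.7% of tested genes above 0 in every library) and CFZ replicate 2 the highest for 37 (18.7%), with 34 members meeting both (7.38%). On the deposited FPKM, which carry no TMM factor, these counts were 24 (13.0% of tested genes) and 30 (10.2%), and 43 members were below their mean in control replicate 2. The span was narrow: 39 members differed by less than 1.5 times between their highest and lowest library, as did 58.6% of tested genes.

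**Figure D1:**
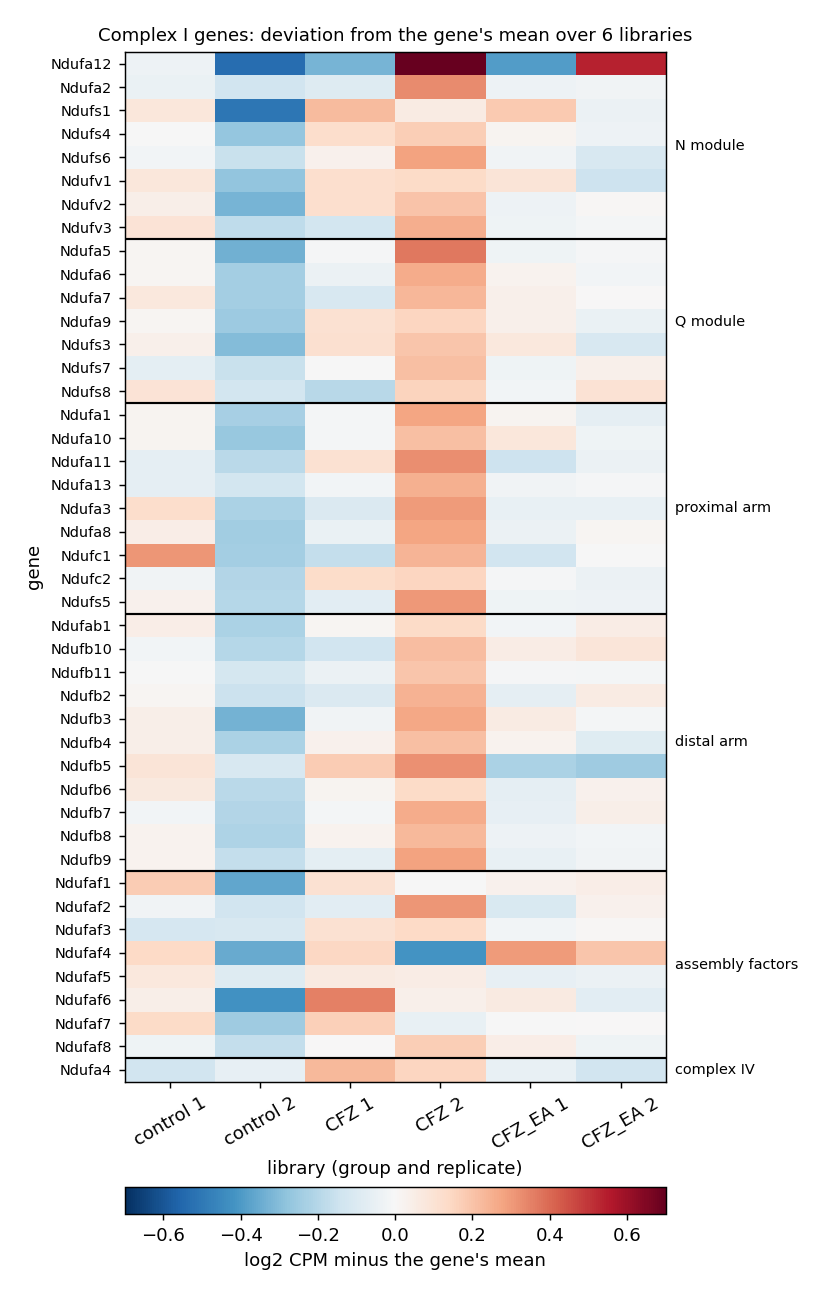
Deviation of 44 complex I genes (rows, by module) in each library (columns) from its own mean over 6 libraries, in log2 CPM, blue below and red above. Control replicate 2 is blue in all 44 rows and CFZ replicate 2 red in 41, the exceptions being Ndufaf1, Ndufaf4 and Ndufaf7. Ndufa12 is also strongly red in CFZ_EA replicate 2, and Ndufb5 is blue in both CFZ_EA libraries.

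None of the 45 members was called in any of the 3 comparisons by edgeR's quasi-likelihood test (adjusted p under 0.05 over 10329 tested genes). For CFZ against control, which asks what carfilzomib does, 0% of tested genes were called higher and 0.029% lower, and the smallest adjusted p among the members was 0.617. The fitted log2 fold change was above 0 for 43 members (49.5% of tested genes) with a median of 0.22, against -0.003 over all tested genes. The groups did not overlap, with both CFZ libraries above both controls, for 17 members (18.4% of tested genes), and none lay apart in the other direction (18.7%). At an unadjusted p under 0.05 stood 1 member (1.82% of tested genes were higher at that p and 5.9% lower). DESeq2 and limma called no member either. At an unadjusted p under 0.05 DESeq2 had 4 members, all higher (272 of 10329 tested genes were higher and 777 lower). limma on log2(FPKM + 1) had 1 member, also higher (120 tested genes were higher and 506 lower).

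The size of this median rested on single libraries. Without control replicate 2 it was 0.10, with 36 members above 0, and without CFZ replicate 2 it was 0.11. Without control replicate 1 it was 0.33, and without CFZ replicate 1 it was 0.31. Within groups, the library medians had a pooled SD of 0.13.

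For CFZ_EA against CFZ, which asks what electroacupuncture adds under carfilzomib, 0.0194% of tested genes were called higher and 0% lower. Here 42 members had a fitted log2 fold change below 0 and 3 above (48.1% of tested genes were above), with a median of -0.14 against -0.01 over all tested genes. The CFZ_EA libraries lay below both CFZ libraries for 16 members and above them for 1 (16.7% of tested genes in each direction). At an unadjusted p under 0.05 stood 2 members, Ndufb5 and Ndufa11, both lower (1.07% of tested genes were lower at that p and 2.01% higher). DESeq2, whose smallest adjusted p was 0.090, had 3 members there, all lower (147 of 10329 tested genes were lower and 276 higher). limma on log2(FPKM + 1) had 2, both lower (112 tested genes were lower and 162 higher). CFZ replicate 2 decided the median: without it the value was 0.01, with 23 members above 0 and 22 below, and without CFZ replicate 1 it was -0.22.

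For CFZ_EA against control, 0% of tested genes were called in either direction. No member had an unadjusted p under 0.05 in edgeR (1.47% of tested genes were higher and 3.66% lower at that p) or in DESeq2 (221 of 10329 tested genes were higher and 544 lower). limma on log2(FPKM + 1) had 1 member at that p, which was lower (93 tested genes were higher and 324 lower). The median over the members was 0.08, with 41 above 0 (49.7% of tested genes), against -0.001 over all tested genes. With library totals in place of TMM factors, which moved the median of all tested genes to -0.07, the members' median was 0.02 with 27 above 0 and 18 below. The groups lay apart upwards for 7 members (16.6% of tested genes) and downwards for 1 (17.8%). Without control replicate 2 the median was -0.03, with 11 members above 0 and 34 below, and without control replicate 1 it was 0.20. The 3 comparisons share their groups, so their values are not independent of each other.

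**Figure D2:**
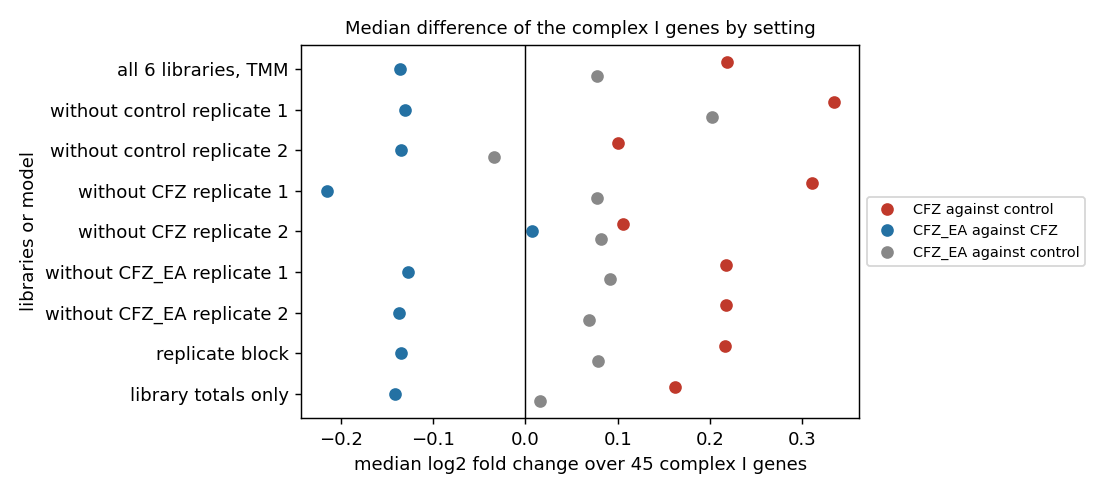
Median log2 fold change over the 45 complex I genes (horizontal axis) in each of the 3 comparisons (colours) under the listed libraries or models. The CFZ against control median runs from 0.10 to 0.33 when 1 library is left out, and the CFZ_EA against control median changes sign without control replicate 2.

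For most members the intervals left out 2-fold differences between these libraries. For 44 of the 45, the 95% interval of the log2 fold change lay within ±1, a 2-fold difference, in each of the 3 comparisons. The exception was Ndufa12. These intervals are for 1 gene at a time and are not adjusted for the number of genes. They rest on 2 libraries a group, which may not be separate mice, so they do not bound a difference between treatments. How many of all tested genes had such intervals was not counted.

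**Figure D3:**
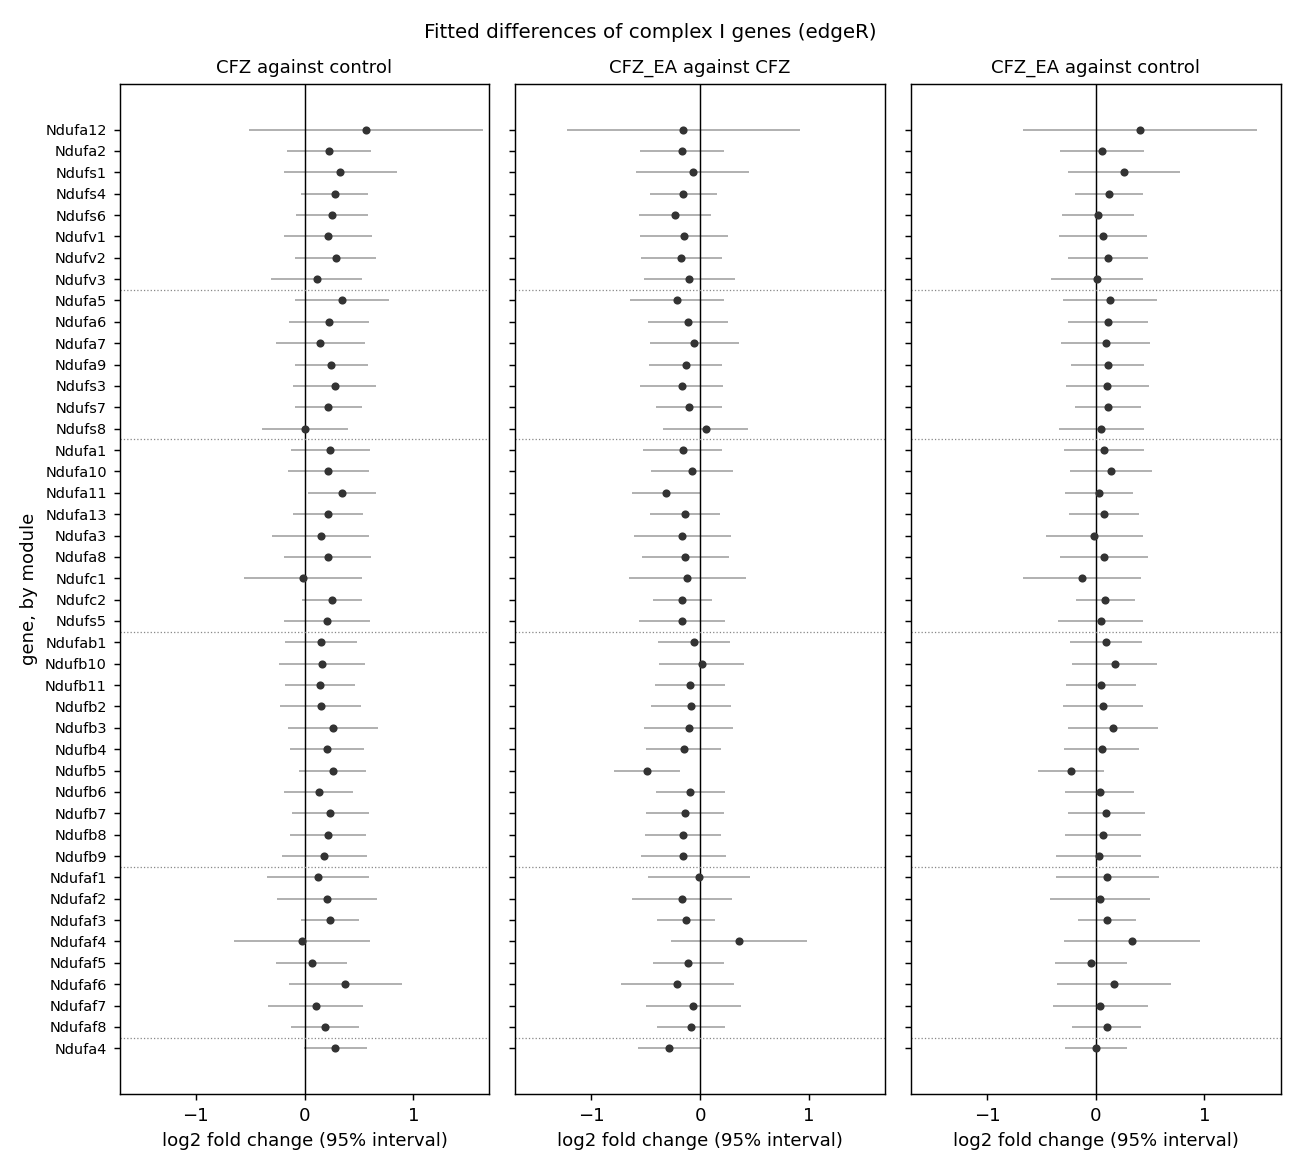
Fitted log2 fold change (point) and 95% interval (line) of 44 complex I genes in the 3 comparisons, ordered by module with dotted lines between modules. The intervals of 1 gene in the first panel (Ndufa11) and 2 in the second (Ndufb5 and Ndufa11) leave out 0, before any adjustment.

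In the N module, the median log2 fold change for CFZ against control was 0.26, with 8 of 8 members above 0 and none called. Ndufv1 (chr19:4007384-4012759), which binds NADH and its flavin cofactor, had 642 and 501 CPM in controls, 658 and 668 in CFZ and 648 and 549 in CFZ_EA. Ndufv2, an iron-sulfur subunit beside it, had 463 and 358 CPM in controls, 486 and 515 in CFZ and 437 and 450.5 in CFZ_EA. Ndufs1 had 387 and 258 CPM in controls, 428 and 382 in CFZ and 416 and 357 in CFZ_EA. Control replicate 2 was the lowest library of each of these 3 genes, and for Ndufs1 the control and CFZ groups overlapped. Their log2 fold changes for CFZ against control were 0.21 ± 0.17 (SE), 0.29 ± 0.15 and 0.33 ± 0.21, with adjusted p from 0.688 to 0.760. Without control replicate 2 they were 0.04, 0.11 and 0.06, and without control replicate 1 they were 0.41, 0.49 and 0.65. For CFZ_EA against control Ndufs1 stood at 0.26 ± 0.21 (adjusted p = 0.877), a value that was -0.004 without control replicate 2, 0.59 without control replicate 1 and 0.15 without CFZ_EA replicate 1.

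Of the accessory N-module subunits, Ndufs4, whose loss causes a mitochondrial disease in mice and humans, had 192 and 159 CPM in controls, 209 and 216 in CFZ and 194 and 188 in CFZ_EA. Its CFZ libraries lay above the other 4, at a log2 fold change of 0.28 ± 0.13 over control (adjusted p = 0.656). Leaving out control replicate 2 gave 0.15, and leaving out control replicate 1 gave 0.42. Ndufs6, a zinc-binding subunit, had 372 and 338 CPM in controls, 385 and 460 in CFZ and 372 and 350.1 in CFZ_EA. Its difference between CFZ_EA and CFZ was -0.23 ± 0.14 (adjusted p = 0.9997), and it was -0.09 without CFZ replicate 2 and -0.35 without CFZ replicate 1.

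Ndufa12 (chr10:94198720-94221443) was the exception of the module and of the whole set. It had 192 and 136 CPM in controls, 157 and 329 in CFZ and 150.2 and 286 in CFZ_EA. Replicate 2 was thus higher in both carfilzomib groups, by 2.10 times in CFZ and 1.901 times in CFZ_EA, and the groups overlapped. It was the only member above 1.6 times in both groups, as were 66 tested genes (0.639%), and the only one with 2 times or more between its highest and lowest library. This feature was singled out after its values were seen. The log2 fold change was 0.56 ± 0.44 for CFZ against control and -0.16 ± 0.44 for CFZ_EA against CFZ. Without CFZ replicate 2 these were -0.07 and 0.48, so neither direction held. Without CFZ replicate 1 they were 1.002 and -0.59, the first was 0.33 without control replicate 2, and the latter was 0.24 without CFZ_EA replicate 1 and -0.69 without CFZ_EA replicate 2.

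In the Q module, the median for CFZ against control was 0.23, with 8 of 8 above 0. Ndufs3, a core subunit that joins the module to the rest of the arm, had 456 and 360 CPM in controls, 481 and 509 in CFZ and 469 and 411 in CFZ_EA. Ndufs7, which holds the last iron-sulfur cluster of the chain, had 358 and 337 CPM in controls, 375 and 435 in CFZ and 368 and 385 in CFZ_EA. Both CFZ libraries exceeded both controls in each of these genes, with log2 fold changes of 0.28 ± 0.16 (adjusted p = 0.693) and 0.22 ± 0.12 (adjusted p = 0.695). For Ndufs3, leaving out control replicate 2 gave 0.11 and leaving out control replicate 1 gave 0.46, and for Ndufs7 it was 0.11 without CFZ replicate 2.

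Ndufs8 (chr19:3908863-3912734), another core subunit and a carrier of iron-sulfur clusters, was above 0 for CFZ against control only by a negligible amount. It had 379 and 325 CPM in controls, 310.1 and 395 in CFZ and 350.2 and 380.4 in CFZ_EA. Both other groups lay inside the span of the CFZ libraries, which held its lowest and highest values. The log2 fold change was 0.003 ± 0.16 for CFZ against control (adjusted p = 0.999) and 0.05 ± 0.16 for CFZ_EA against CFZ. Its interval for CFZ against control ran from -0.39 to 0.40, and its sign turned with the scaling. With 1 library left out, the 2 log2 fold changes ran from -0.18 to 0.17 and from -0.11 to 0.24. Without CFZ replicate 2 they were -0.18 and 0.24, and without CFZ replicate 1 they were 0.17 and -0.11.

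In the proximal membrane arm, the median for CFZ against control was 0.21, with 8 of 9 above 0. Ndufa11 (chr17:56717767-56722141), an accessory subunit at the face that meets complex III in the respiratory supercomplex, had 192 and 176 CPM in controls, 216 and 252 in CFZ and 181 and 195 in CFZ_EA. Both CFZ libraries were above all 4 others, which overlapped each other. The log2 fold change was 0.35 ± 0.13 for CFZ against control (95% interval 0.03 to 0.66, unadjusted p = 0.035, adjusted p = 0.617). For CFZ_EA against CFZ it was -0.31 ± 0.13 (unadjusted p = 0.049, adjusted p = 0.9997). Without CFZ replicate 2 these were 0.23 and -0.19.

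Ndufc2, another accessory subunit of this arm, showed the same order at a smaller size, with 146 and 129 CPM in controls, 162 and 165 in CFZ and 148 and 144 in CFZ_EA. Its CFZ libraries lay above the other 4, at 0.25 ± 0.11 over control (adjusted p = 0.652), a value that was 0.16 without control replicate 2. Ndufc1, its neighbour in the complex, was the 1 member of the arm below 0 for CFZ against control, at -0.01 ± 0.22 (from -0.26 without control replicate 2 to 0.29 without control replicate 1), and its highest library was control replicate 1.

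In the distal membrane arm, the median for CFZ against control was 0.18, with 11 of 11 above 0. Ndufb5 (chr3:32736990-32751566), an accessory subunit, was the member with the smallest unadjusted p in any comparison. It had 345 and 299.7 CPM in controls, 366 and 405 in CFZ and 278 and 273 in CFZ_EA. The 3 groups did not overlap: CFZ was highest, control intermediate and CFZ_EA lowest. The log2 fold change for CFZ_EA against CFZ was -0.49 ± 0.13 (95% interval -0.79 to -0.18, unadjusted p = 0.0081, adjusted p = 0.9997). With 1 library left out it ran from -0.56 to -0.41, and groups that lie apart could hardly turn sign in this way. Ndufb5 was at 0.26 ± 0.13 for CFZ against control (adjusted p = 0.670) and -0.23 ± 0.13 for CFZ_EA against control (adjusted p = 0.848). The former was 0.16 without control replicate 2 and the latter -0.11 without control replicate 1. Mrpl47 (3.41 FPKM) overlaps Ndufb5 on the opposite strand, and whether counting used strand is not given in the sources used here.

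Ndufb10 had 784 and 689 CPM in controls, 724 and 922 in CFZ and 821 and 840.5 in CFZ_EA. Its CFZ_EA libraries lay above both controls, at 0.17 ± 0.16 (adjusted p = 0.887; 0.08 without control replicate 2 and 0.28 without control replicate 1), while its CFZ libraries enclosed all others but the lowest control. Ndufb9 had 760.4 and 666 CPM in controls, 712 and 907 in CFZ and 721 and 733 in CFZ_EA, and Ndufb11 had 541 and 498, 527 and 621, and 539 and 538 in the same order. Ndufab1, the mitochondrial acyl carrier protein, which also serves fatty acid and lipoic acid synthesis, had 373 and 309.6 CPM in controls, 364 and 395 in CFZ and 355 and 373 in CFZ_EA. Control replicate 2 was lowest in all of these 4, CFZ replicate 2 highest, and the control and CFZ groups overlapped.

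**Figure D4:**
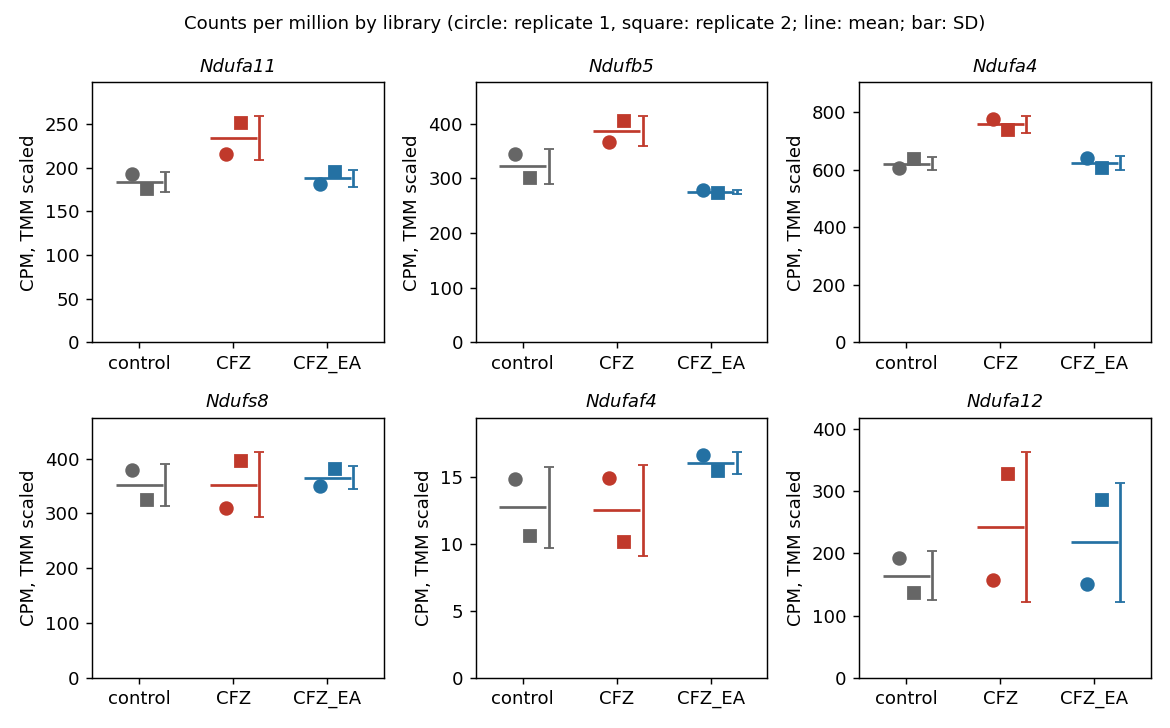
TMM-scaled CPM (vertical axes start at 0) of 6 complex I genes in each library of the 3 groups, with circles for replicate 1, squares for replicate 2, lines for means and bars for SD of 2 libraries. Ndufb5 has 3 separate groups, Ndufa11 and Ndufa4 are highest in both CFZ libraries, and Ndufa12 splits by replicate within CFZ and CFZ_EA.

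The 8 assembly factors had a median of 0.15 for CFZ against control, with 7 above 0 and none called. Ndufaf3 and Ndufaf4 act together on the Q module. Ndufaf3 had 35.6 and 35.7 CPM in controls, 41.6 and 42.5 in CFZ and 38.1 and 38.8 in CFZ_EA. Its 3 groups thus did not overlap in CPM. On the deposited FPKM its control and CFZ_EA libraries overlapped, at 17.6 and 19.3 against 19.04 and 18.97 FPKM. Impdh2 (11.04 FPKM) overlaps Ndufaf3 on the opposite strand. The difference of Ndufaf3 between CFZ and control was 0.24 ± 0.11 (adjusted p = 0.656). Ndufaf4 (chr4:24898083-24905001), in contrast, had 14.9 and 10.6 CPM in controls, 14.9 and 10.1 in CFZ and 16.6 and 15.5 in CFZ_EA.

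Both CFZ_EA libraries of Ndufaf4 were above the other 4, at a log2 fold change of 0.36 ± 0.26 over CFZ (adjusted p = 0.9997) and 0.34 ± 0.26 over control (adjusted p = 0.873). Over CFZ it was 0.11 without CFZ replicate 2 and 0.67 without CFZ replicate 1, and over control, leaving out control replicate 2 gave 0.11 and leaving out control replicate 1 gave 0.61. Against control its CFZ value was -0.02 ± 0.26, and it ran from -0.33 without CFZ replicate 1 to 0.25 without control replicate 1. On the deposited FPKM the CFZ and CFZ_EA libraries of Ndufaf4 overlapped, at 3.57 and 2.26 against 3.87 and 3.51 FPKM. Ndufaf4 was the 1 member whose groups lay apart upwards for CFZ_EA against CFZ.

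Ndufaf1, which works in the membrane-arm assembly complex with Ecsit and Acad9, had 42.8 and 29.3 CPM in controls, 40.7 and 37.8 in CFZ and 38.7 and 39.1 in CFZ_EA. Ndufaf6, an early assembly factor, had 15.6 and 11.3 CPM in controls, 19.4 and 15.6 in CFZ and 15.9 and 14.4 in CFZ_EA, and its log2 fold change for CFZ against control was 0.38 ± 0.21 (adjusted p = 0.695), and leaving out control replicate 2, CFZ replicate 1 or control replicate 1 gave 0.16, 0.21 or 0.63. Ndufaf7, an arginine methyltransferase, had 25.8 and 19.7 CPM in controls, 26.3 and 22.6 in CFZ and 23.4 and 23.5 in CFZ_EA. For these 3 control replicate 2 was again lowest and the control and CFZ groups overlapped.

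Ndufaf5, which hydroxylates Ndufs7, had 23.8 and 21.2 CPM in controls, 23.6 and 23.5 in CFZ and 21.7 and 22.0 in CFZ_EA. Its partner Ndufaf8 had 33.3 and 30.3 CPM in controls, 34.1 and 38.3 in CFZ and 35.04 and 33.3 in CFZ_EA. Ndufaf2, a late factor related in sequence to Ndufa12, had 11.5 and 10.6 CPM in controls, 11.1 and 14.4 in CFZ and 10.8 and 11.9 in CFZ_EA. Its replicate 2 was the higher in CFZ and in CFZ_EA, by less than the limit of 1.6 times. The same order was seen in Ndufa12 and in other members such as Ndufb9 and Ndufb7, so it is not particular to this pair.

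Ndufa4 (chr6:11900292-11907483), named as a complex I subunit and later assigned to complex IV, departed from the shared pattern. It had 605 and 638 CPM in controls, 777 and 737 in CFZ and 640.4 and 605 in CFZ_EA. Both CFZ libraries were above the other 4, and control replicate 2, though below the gene's mean, was not its lowest library. The log2 fold change was 0.28 ± 0.12 for CFZ against control (unadjusted p = 0.051, adjusted p = 0.647) and -0.28 ± 0.12 for CFZ_EA against CFZ (unadjusted p = 0.053, adjusted p = 0.9997). With 1 library left out these values ran from 0.25 to 0.32 and from -0.32 to -0.24. Because the CFZ libraries lay apart from the others, leaving out 1 library could hardly turn these signs.

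The 7 subunits encoded in mitochondrial DNA, the proton-pumping core of the membrane arm, followed another library order. Their summed level was 44799 and 22429 CPM in controls, 26688 and 35029 in CFZ and 33297 and 49779 in CFZ_EA. Control replicate 2 was lowest, as for the nuclear members, but control replicate 1 and CFZ_EA replicate 2 were highest. Per length, mt-Nd1 had 11218 and 6142 FPKM in controls, 8628 and 10048 in CFZ and 9339 and 11722 in CFZ_EA, and mt-Nd2 had 8012 and 4358, 4488 and 5520.2, and 5549 and 8512 FPKM in the same order. mt-Nd3 had 4287 and 2301 FPKM in controls, 3387 and 4014 in CFZ and 3223 and 3894 in CFZ_EA. These 3 had their lowest library in control replicate 2.

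mt-Nd4 had 7348 and 4019 FPKM in controls, 3534 and 5331 in CFZ and 5017 and 9079 in CFZ_EA, and mt-Nd4l had 3743 and 1953, 1788 and 2340.4, and 2803 and 4815 FPKM in the same order. mt-Nd5 had 2994 and 1726 FPKM in controls, 1989.7 and 1974 in CFZ and 2499.5 and 3254 in CFZ_EA, and mt-Nd6 had 5788 and 3067, 3598 and 4279.7, and 4118 and 5646 FPKM. The control libraries of every mt-Nd gene lay far apart, with replicate 1 the higher. The median log2 fold change was -0.21 for CFZ against control, 0.50 for CFZ_EA against CFZ and 0.33 for CFZ_EA against control, with none called; the largest, mt-Nd4l for CFZ_EA against CFZ, was 0.89 ± 0.43 (adjusted p = 0.9997) and 0.43 without CFZ_EA replicate 2. The gene models of mt-Nd4 and mt-Nd4l and of mt-Nd5 and mt-Nd6 overlap, so reads there may be split between them.

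Nuclear genes of the other respiratory complexes had fold changes of similar size; the difference from complex I was not tested. For CFZ against control, the medians were 0.28 for 4 genes of complex II, 0.21 for 9 of complex III, 0.23 for 11 of complex IV and 0.22 for 15 of complex V, each with every gene above 0 and none called. The smallest unadjusted p was that of Atp5j2, a membrane subunit of ATP synthase, at 0.47 ± 0.15 for CFZ against control (adjusted p = 0.608) and -0.43 ± 0.15 for CFZ_EA against CFZ (adjusted p = 0.9997). Their library medians ran from -0.26 to -0.21 in control replicate 2 and from 0.10 to 0.20 in CFZ replicate 2. The cardiomyocyte markers stood at -0.22 and 0.14 in these 2 libraries and the fibroblast markers at 1.23 and -0.77, and the atrial markers stood at 0.75 and -4.015. For CFZ against control, 8 of 8 cardiomyocyte markers were above 0, with a median of 0.26, and 8 of 8 fibroblast markers were below 0, with a median of -1.32. The part of cell composition in the complex I values was not tested.

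Of 12 further assembly factors outside the naming rule, 12 were above 0 for CFZ against control, with a median of 0.16, and none was called. Tmem126a, which takes part in building the membrane arm, had the smallest unadjusted p among them, at 0.34 ± 0.12 for CFZ against control (adjusted p = 0.608) and 0.49 ± 0.12 for CFZ_EA against control (adjusted p = 0.848), and DESeq2 called the latter (adjusted p = 0.045). Of 9 regulators of respiratory genes 7 were above 0 for CFZ against control, with a median of 0.17 and none called. Among them Esrra, an estrogen-related receptor, had 39.1 and 40.5 FPKM in controls, 42.9 and 43.0 in CFZ and 44.0 and 40.9 in CFZ_EA, and Ppargc1a, the coactivator of mitochondrial biogenesis, had 3.65 and 2.37, 3.11 and 2.14, and 3.21 and 3.82 FPKM. In a list of 6 genes of mitochondrial mass, 5 were above 0 and none was called by edgeR. Timm23, a channel of the inner-membrane import machinery, was at 0.66 ± 0.14 for CFZ against control (adjusted p = 0.608) and was called by DESeq2 (adjusted p = 0.019), and it was at -0.42 ± 0.14 for CFZ_EA against CFZ (adjusted p = 0.9997).

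**Figure D5:**
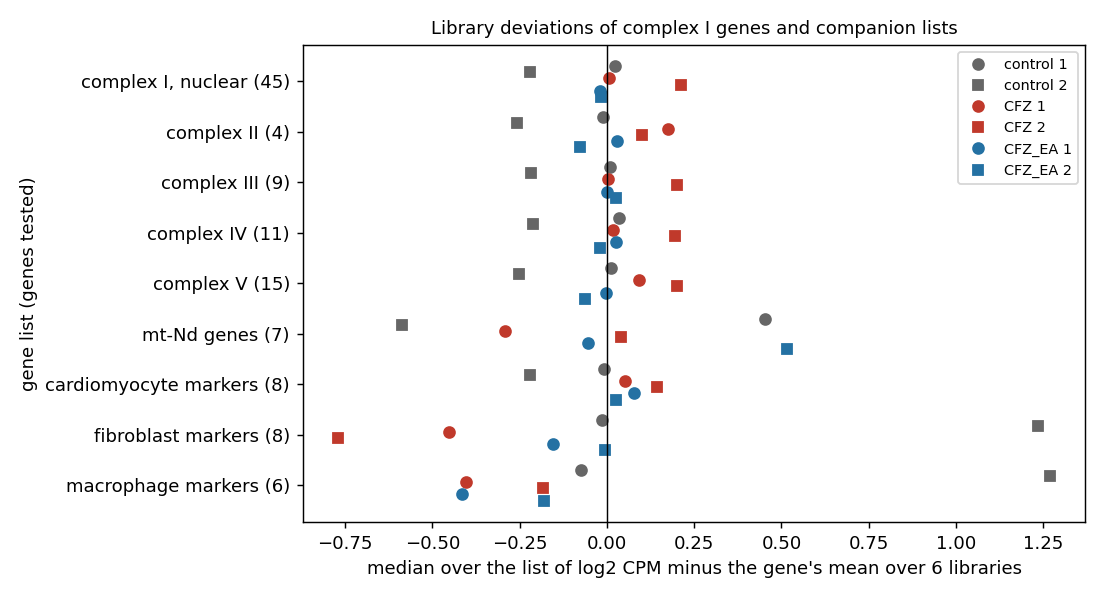
Median over each gene list of log2 CPM minus the gene's mean over 6 libraries (horizontal axis), with 1 point per library, circles for replicate 1 and squares for replicate 2. Control replicate 2 is lowest for complexes I to V, the mt-Nd genes and the cardiomyocyte markers and highest for the fibroblast and macrophage markers.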

How the data were processed

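Messenger RNA was measured in 6 heart libraries, 2 in each of 3 groups. Samples with an RNA integrity number above 7, per the labels' protocols, went through 2 rounds of oligo(dT) selection and a dUTP kit that marks strand, and were read in pairs of 150 bases. Tools listed by the submitters' processing notes are HISAT2 2.0.4, StringTie 1.3.4d and cutadapt 1.9, with the build GRCm38; which annotation release and strand setting were used is not given in the sources used here. The authors deposited, per the file headers, FPKM and a count per gene and library; the deposited counts were treated as estimated counts and rounded. Between 42.2% and 43.3% of counts from 1 to 20 were multiples of 4 (25% by chance), so a count may be less than a read. Gene IDs (26835 of 26835) matched GENCODE M21.

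The 10329 genes whose FPKM averaged 1 or more were fitted with edgeR 4.0.16 (R 4.3.3) in 1 model of 3 groups over 6 libraries, scaled by TMM (0.957 to 1.08) to CPM, with Benjamini-Hochberg adjustment over all of them and calls under 0.05. The steps were tested on simulated data, whose planted changes were all larger than those fitted for the members with all 6 libraries. Detection of changes as small as the members' was not tested. limma 3.58.1, DESeq2 1.42.0, other scalings and filters, a block for the replicate number, and fits lacking 1 library each were alternatives. The members and gene lists were chosen with earlier results of these data known. Values are given for the nuclear core subunits, of which 1 is not reported here, the Ndufaf factors, Ndufa4, Ndufab1, the 4 members with the smallest unadjusted p per comparison and the 3 highest and 3 lowest in FPKM. Companion genes were taken from the 2 smallest unadjusted p per list and comparison. Ndufa12, Ndufc1, Ndufb2 and the promoters of Ndufs5 and Ndufb4 were added after their values were seen.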

Additional observations from a re-analysis of the deposited data

How the results depend on the processing

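No complex I member was called under any of the alternatives run, whose smallest adjusted p among the members was 0.121, 0.090 and 0.162 in the 3 comparisons in the order of the report. Leaving out 1 library gave members' medians from 0.10 to 0.33 for CFZ against control, from -0.22 to 0.0068 (without CFZ replicate 2) for CFZ_EA against CFZ and from -0.03 to 0.20 for CFZ_EA against control, and counts of called members of 0 throughout. Where a group was left with 1 library, that library is assumed to vary like the other groups. Library totals in place of TMM factors moved the median of all tested genes by up to -0.07 and gave members' medians of 0.16, -0.14 and 0.02. With the replicate number as a block the medians were 0.22, -0.14 and 0.08, with no member called and 2, 2 and 0 tested genes called. Over all tested genes, deviations of same-numbered libraries correlated at -0.066 (control and CFZ), -0.055 (control and CFZ_EA) and 0.075 (CFZ and CFZ_EA). Such values over all genes cannot show whether some genes vary with the replicate number. Over all tested genes edgeR called 3, 2 and 0, whereas DESeq2 called 27 higher and 111 lower, 38 and 17, and 26 and 26, and edgeR without control replicate 1 called 24 and 308 for CFZ and 20 and 211 for CFZ_EA against control. Leaving out control replicate 2 and CFZ_EA replicate 2 together, chosen after seeing the data, gave medians of 0.10, -0.13 and -0.02.

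Some of the fold changes given above for named genes turned sign, and the cause was not tested. Among them was the largest value fitted for a member, that of Ndufa12 for CFZ against control (0.56). Fold changes of named genes that are not given above turned sign as well. When 1 library was left out, Ndufaf1 ran from -0.13 to 0.42 for CFZ against control. Ndufv1 ran from -0.10 to 0.27 for CFZ_EA against control. For CFZ against control, Ndufs8 was -0.057 with library totals, -0.0025 without mitochondrial genes, -0.059 with limma at either pseudocount (1 or 0.1), -0.0054 with the replicate block, -0.11 without both doubted libraries and from -0.18 without CFZ replicate 2 to 0.17 when 1 library was left out. Ndufaf4 was 0.023 with filterByExpr, 0.025 without a filter and from -0.33 to 0.25 when 1 library was left out; Ndufc1 was 0.034, 0.036 and from -0.26 to 0.29. Ndufa12 ran from -0.067 to 1.002 when 1 library was left out. For CFZ_EA against CFZ, Ndufs8 was -0.0060 without both doubted libraries and ran from -0.11 to 0.24, and Ndufa12 from -0.69 to 0.48, when 1 library was left out. For CFZ_EA against control, Ndufs1 ran from -0.0042 to 0.59. Timm23 (0.66, CFZ against control) and Tmem126a (0.49, CFZ_EA against control) passed with DESeq2 only. Counts may be less than reads; with counts divided by 4, the members' medians were 0.22, -0.14 and 0.08.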

Other observations

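Relatives of the complex I genes outside the naming rule were also present. Ndufa4l2, a paralog of Ndufa4, had 27.7 and 32.4 FPKM in controls, 26.6 and 23.5 in CFZ and 20.1 and 24.4 in CFZ_EA, so that both CFZ libraries, in which Ndufa4 was highest, were below both controls. Ndufb1 is listed only as Ndufb1-ps, at 143 and 115 FPKM in controls, 133 and 146 in CFZ and 130.2 and 129 in CFZ_EA. The near-identical copies Ndufab1-ps, Ndufb4c and Ndufs6b had 41.7, 36.4 and 13.5 FPKM in control replicate 1.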
